A study of Mus musculus with 6 samples.

Results

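The genes described here make, interconvert and carry amino acids. They were taken from the gene tables of the series by name: 19 enzymes of serine, glycine, folate one-carbon, asparagine, glutamine, proline, branched-chain and sulfur amino acid metabolism, and 13 amino acid carriers, 32 of 57508 genes in all. RNA was sequenced from KPC1199, a mouse line that the labels describe as pancreatic tumor cells, as 3 libraries of a group labelled WT and 3 of a group labelled ACSL5 knockdown, to ask how lowering ACSL5, an enzyme that activates long-chain fatty acids by joining them to coenzyme A, changed gene expression. The labels give no other genotype or treatment for either group. The library names hold siACSL5_CY3 for WT and siACSL5_2260 for the knockdown, and the word KO appears in the titles of the second group. The sources used here do not give time after treatment, the reagents behind these names or the number of cultures.

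Cells build serine from the glycolytic intermediate 3-phosphoglycerate in the steps catalysed by Phgdh, Psat1 and Psph. Serine hydroxymethyltransferases then pass a carbon of serine to folate, in the cytosol and in mitochondria, and that carbon goes into purines, thymidylate and methionine. Amino acids that are not made are taken up by carriers of the solute carrier (Slc) families. Many of these enzymes and carriers are targets of ATF4, the transcription factor of the amino acid response, and pancreatic tumors are known for a high demand for glutamine and serine.

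The label was checked on Acsl5 itself. WT replicates 1 to 3 held 342, 265 and 270.2 CPM of Acsl5, against 49.8, 55.6 and 57.2 CPM for the knockdown. CPM are counts divided by the library's size and scaled between libraries by TMM, the trimmed mean of M values. The groups did not overlap, and the knockdown mean was 20.2% of the mean of WT replicates 2 and 3. A two-sided exact permutation test over the 6 libraries gave p = 0.1, the smallest value that 3 libraries against 3 allow. By edgeR's quasi-likelihood test the log2 fold change of Acsl5 was -2.43 with an adjusted p of 0.0619 over 6 libraries, and -2.32 with an adjusted p of 5.95e-08 without WT replicate 1. The exons of Acsl5 share 8.31% of their bases with Zdhhc6 on the opposite strand, and the sources used here do not state whether the libraries were stranded.

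One library, WT replicate 1, was unlike the rest. Its correlation with the other 5 libraries in log2 CPM across genes was 0.903 to 0.923, against 0.972 to 0.991 for the other 10 pairs. Library totals ran from 21794244 to 29996194 expected counts. Fold changes of the members tested are therefore given over 6 libraries, the design of the labels, and over 5 libraries, without WT replicate 1. Summed levels of 5 epithelial markers were 8460 to 8990 TPM (deposited transcript levels, per gene length and library sum) in WT and 7800 to 8520 TPM in the knockdown. Nearly all of this was Krt19, Krt8 and Krt18. Cdh1 went the other way without overlap, at 37.2 to 95.7 TPM in WT and 126 to 131 TPM in the knockdown. Of the other cell types, 3 of 3 islet markers were at 0, and 4 lymphocyte markers summed to 0 to 0.07 TPM in WT and 0 to 0.02 TPM in the knockdown. Summed levels were 0.08 to 0.11 against 0.12 TPM for 3 endothelial markers, with Cdh5 at 0, and 9.49 to 16.1 against 14.7 to 17.7 TPM for 4 acinar markers, with Pnlip at 0. Of the acinar markers Cela1 was at 6.23 to 9.88 against 12.2 to 14.7 TPM, and Prss2 at 2.77 to 6.18 against 1.5 to 3.06 TPM. For 5 fibroblast markers, Lum at 0, the sums were 6.84 to 27.5 against 15.9 to 17.4 TPM. Most of this was Pdgfra, at 5.92 to 24.7 against 13.2 to 14.7 TPM. For 5 macrophage markers, Adgre1 at 0, the sums were 3.55 to 6.53 against 7.16 to 8.59 TPM. Nearly all of this was Cd68, at 3.42 to 6.52 against 7.16 to 8.49 TPM, and the other 4 were below 1 TPM in every library. The part of the cell type markers in the results was not tested.

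Over 5 libraries, 14 of the 31 members tested passed an adjusted p of 0.05 in edgeR, 5 higher and 9 lower in the knockdown. The heavy chain Slc3a2 rose most among those called, by 0.84 on the log2 scale, and the neutral carrier Slc1a4 fell most, by 0.50. The 14 make up 45.2% of the members, where 34.3% of the 15152 genes tested passed. The members called higher were 16.1% of those tested against 16.3% of all genes, and those called lower were 29.0% against 18% of all genes. Slc7a2, a cationic carrier, lay at 0 to 0.258 CPM and was not tested. In bulk RNA, fewer cells of a kind and less RNA per cell cannot be told apart.

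Enzymes and carriers did not move as blocks. Of 19 enzymes, 2 rose (Glul and Bcat1) and 6 fell (Psat1, Psph, Shmt1, Mthfd1l, Gpt2 and Aldh18a1), and the median log2 fold change was 0.000841. Of 12 carriers tested, 3 rose (Slc3a2, Slc7a1 and Slc43a2) and 3 fell (Slc7a5, Slc7a7 and Slc1a4), with a median of 0.03. The median over all genes tested was -0.00894. Psat1, Psph, Slc1a4, Slc3a2 and Slc7a1 were called under each of the 19 other settings tried on these 5 libraries, and the other 9 called members were lost in at least 1 of them. Conversely, 6 members not called gained a call in at least 1: Mthfd2 in 8, Got2 in 4, Cth and Slc6a9 in 2 each, Mthfd1 in 1, and Phgdh in 2, higher in 1 and lower in the other.

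Over 6 libraries edgeR called 0 of 31 members, and 0% of the 14679 genes tested. An unadjusted p below 0.05 was reached by 6 members, 2 higher (Bcat1 and Slc43a2) and 4 lower (Psph, Cth, Slc7a7 and Slc1a4), and by 1210 higher and 1141 lower genes in all. DESeq2 called 3 members over the same 6 libraries, Psat1 and Slc1a4 lower and Bcat1 higher, where it called 7.69% of 14660 genes, and limma-voom called 0 members and 9 genes in all. The CPM of the 3 knockdown libraries lay above all 3 WT libraries for 6 members, which is 19.4% of those tested against 18.7% of all genes. It lay below all 3 for 7 members, which is 22.6% against 15.6% of all genes. The enzyme median over 6 libraries was -0.14 and the carrier median 0.15, with 7 of 19 enzymes and 10 of 12 carriers at a positive fold change, beside a median of -0.02 over all genes.

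**Figure D1:**
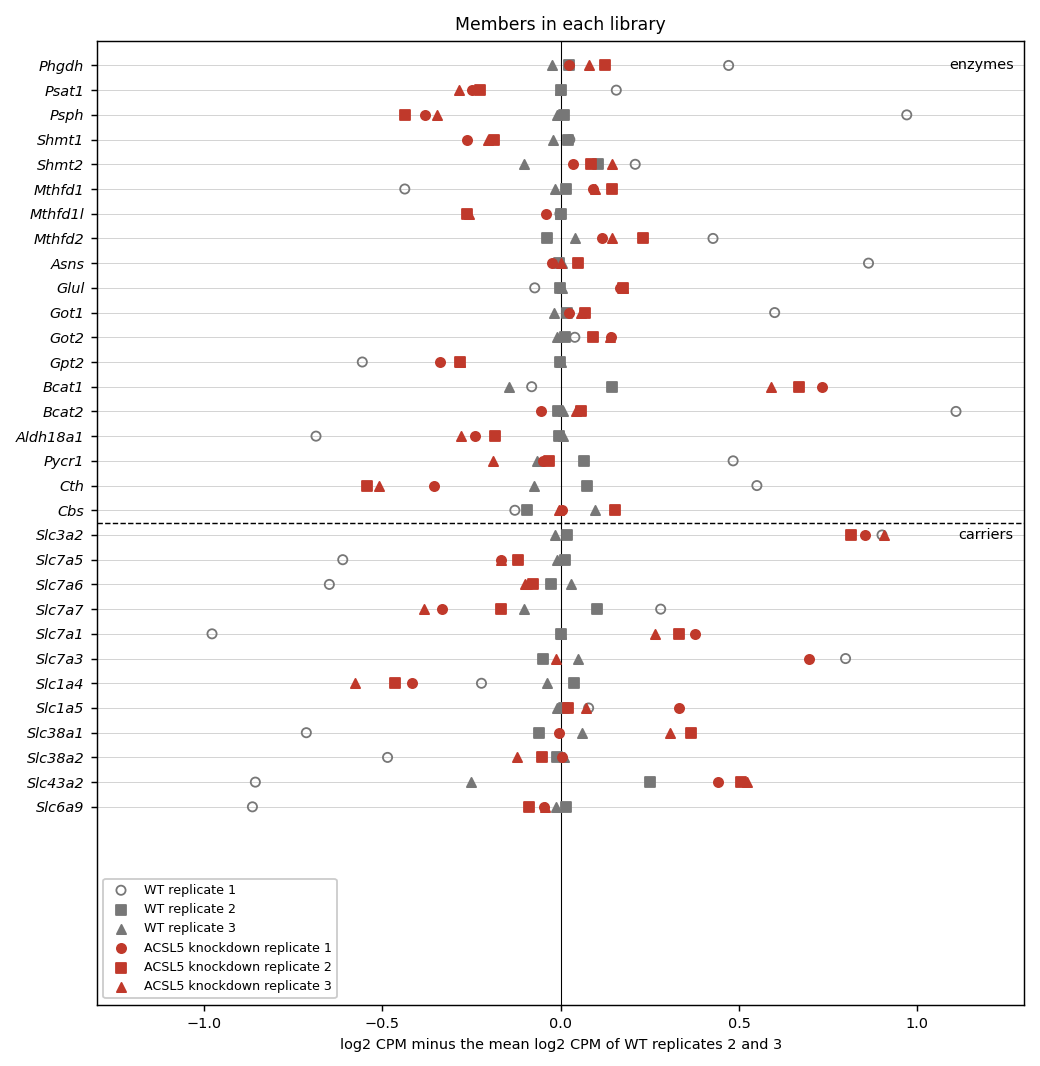
Each row is a member and each point a library; the horizontal axis is log2 CPM minus the mean log2 CPM of WT replicates 2 and 3, in log2 units. Grey filled points are WT replicates 2 and 3, open circles WT replicate 1 and red points the 3 knockdown libraries. Slc7a2, at 0 to 0.258 CPM, is not drawn. Slc7a3 in knockdown replicate 2, at 1.51 CPM, lies beyond the right edge and is not seen. WT replicate 1 lies to the right for Psph, Asns and Bcat2, to the left for Slc7a1 and Slc6a9, and among the knockdown libraries for Slc3a2.

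**Figure D2:**
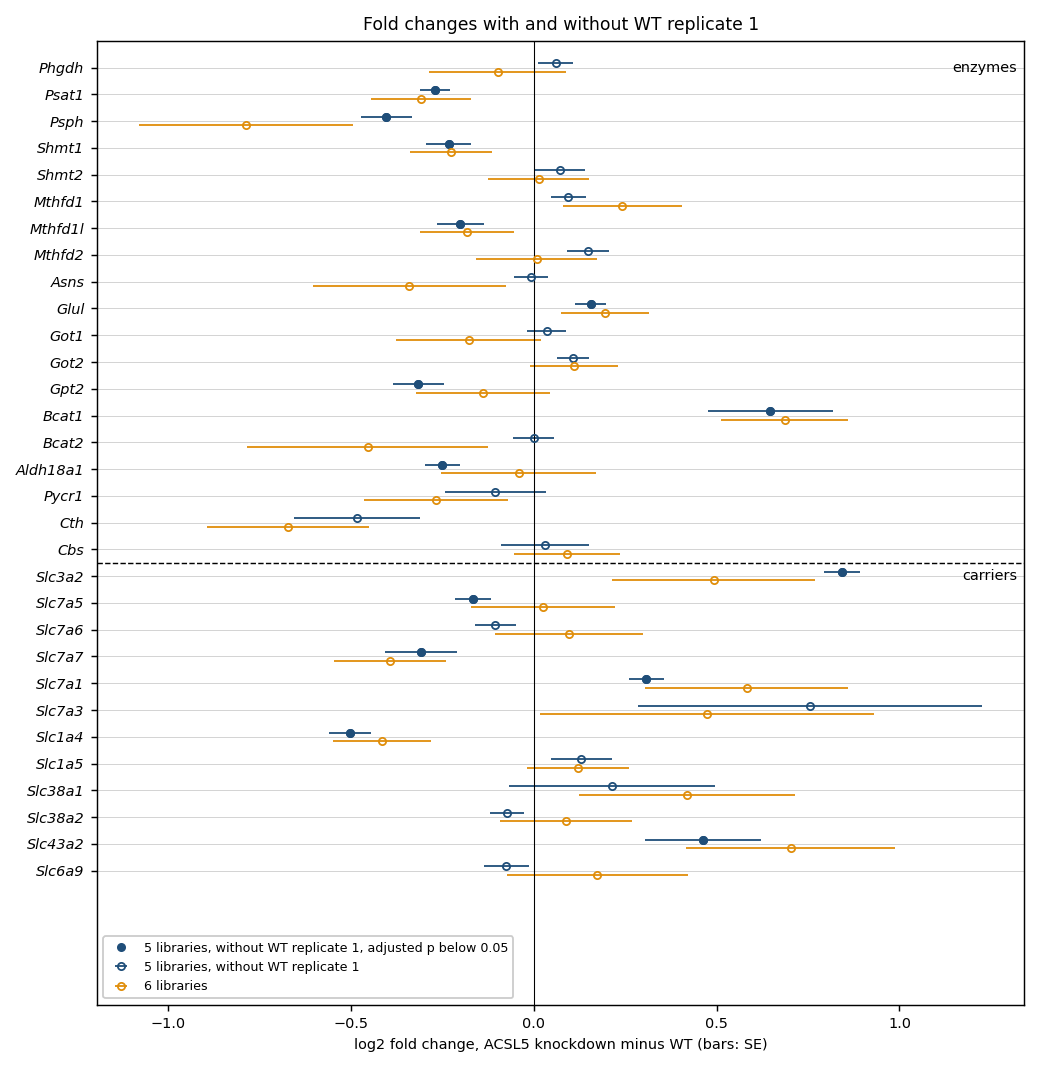
The horizontal axis is the log2 fold change, ACSL5 knockdown minus WT, for 31 members, with bars of 1 standard error from edgeR. Blue points are the fit of 5 libraries, filled where the adjusted p was below 0.05 (14 members), and orange points the fit of 6 libraries, in which 0 members passed.

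The deviation of WT replicate 1 followed gene length. Among genes under 2000 bases its level exceeded the mean of the other WT libraries with a median log2 difference of 0.67 over all genes and 0.51 over 5 members. From 2000 to 3000 bases the medians were 0.09 and 0.18, over 14 members, and from 3000 to 5000 bases they were -0.32 and -0.52, over 8 members. Above 5000 bases they were -0.84 and -0.64, over 4 members. Spearman's correlation of the deviation with length was -0.77 across the 31 members and -0.58 across all genes, a description across genes of 1 library. Slc3a2 (listed at 2813 bases) deviated by 0.90, Slc6a9 (2107 bases) by -0.85 and Bcat1 (7833 bases, the longest) by -0.07, away from their classes. The TPM of these 3 did not follow the listed length. In WT replicate 2 Slc3a2 stood at 171 CPM and 184 TPM, but Glul, of 2792 bases, at 187 CPM and 108 TPM. Slc6a9 stood at 41.8 CPM and 21.0 TPM, but Mthfd2, of 2085 bases, at 81.6 CPM and 66.8 TPM. Bcat1 stood at 3.77 CPM and 2.1 TPM, but Slc7a1, of 7179 bases, at 149 CPM and 31.1 TPM. The length class of these 3 is therefore uncertain. Short members such as Psph (1733 bases) and Bcat2 (1772 bases) read high in WT replicate 1, and long members such as Slc7a1 (7179 bases) read low.

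**Figure D3:**
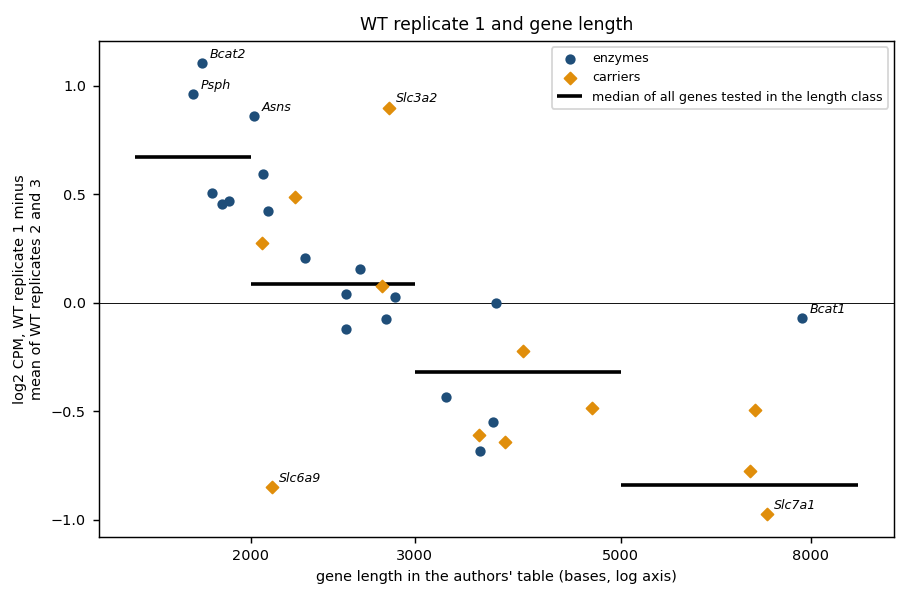
The horizontal axis is gene length in bases on a log scale, from the authors' table, and the vertical axis is log2 CPM of WT replicate 1 minus the mean of WT replicates 2 and 3, for each member; horizontal lines mark the median of all genes tested in 4 length classes, of which the first takes in all genes under 2000 bases and the last all over 5000 bases. The members descend from left to right, and Slc3a2 at 0.90, Slc6a9 at -0.85 and Bcat1 at -0.07 lie far off the medians of their class. That class is by the listed length, which the TPM of these genes did not follow.

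Promoter sequences are shown for the members that hold a response element known from amino acid starvation. Of the 32 members, 26 had a promoter in the RefSeq table of build GRCm38.p6, each 250 bases before to 50 after a transcription start. The exact letters TTGCATCA, 1 form of the composite element of C/EBP and ATF factors, were searched on either strand. They were present in 4 of 26 members and in 1.03% of 27025 genes with a promoter. Variant forms of the element were not counted, so members without these letters may hold one. The amino acid response sequence known from the asparagine synthetase promoter, TGATGAAAC on either strand, was present in Asns alone among the members and in 0.229% of genes. Stretches of these windows around the match, ending at most 20 bases after the start, run 5′ to 3′ on the strand of the gene, with the matched letters in capitals.
Asns, chr6:7693190-7693292, minus strand: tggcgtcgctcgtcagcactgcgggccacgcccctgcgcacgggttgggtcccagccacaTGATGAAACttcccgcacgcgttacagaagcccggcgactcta
Got1, chr19:43524640-43524767, minus strand: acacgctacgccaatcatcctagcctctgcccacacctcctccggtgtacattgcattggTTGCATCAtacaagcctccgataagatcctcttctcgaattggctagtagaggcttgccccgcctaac
Pycr1, chr11:120643784-120643911, minus strand: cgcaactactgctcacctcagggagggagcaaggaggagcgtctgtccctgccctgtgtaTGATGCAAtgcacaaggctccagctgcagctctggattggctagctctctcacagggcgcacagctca
Slc1a4, chr11:20332694-20332777, minus strand: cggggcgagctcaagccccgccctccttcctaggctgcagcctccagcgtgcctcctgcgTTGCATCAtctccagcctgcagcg
Slc7a7, chr14:54417925-54418005, minus strand: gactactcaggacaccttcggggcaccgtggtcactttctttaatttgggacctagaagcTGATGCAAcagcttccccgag
Relative to the start, the match began at position -23 in Asns, -102 in Got1, -103 in Pycr1 and -4 in Slc1a4, and in Slc7a7 at -1 or -243, depending on which of its start sites is used. Pycr1 and Slc7a7 hold the element on the opposite strand. Over 5 libraries the log2 fold changes of these genes were -0.01 for Asns, 0.04 for Got1, -0.10 for Pycr1, -0.50 for Slc1a4 and -0.31 for Slc7a7, and edgeR called only the last 2 of these. A match says that these letters are in the window, and it is not evidence of binding.

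Of the serine pathway, Psat1 and Psph fell over 5 libraries and Phgdh did not pass. Phgdh, which oxidises 3-phosphoglycerate and commits carbon to serine, stood at 829, 608 and 589 CPM in WT and at 607, 652 and 632 CPM in the knockdown. In CPM WT replicate 1 was the highest of the 6, and the other 5 overlapped. In TPM WT replicate 1 was the lowest. Phgdh stood at 389, 534 and 517 TPM in WT and at 536, 586 and 560 TPM in the knockdown, without overlap. The log2 fold change of Phgdh was 0.06 over 5 libraries (edgeR adjusted p = 0.370) and -0.10 over 6 (edgeR adjusted p = 0.804). Its direction also turned with gene GC content removed as a trend, to -0.11, and with length and GC removed it was called lower, at -0.14 (edgeR adjusted p = 0.0323). Without knockdown replicate 1 it was called higher, at 0.10 (edgeR adjusted p = 0.0329).

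Psat1, the aminotransferase of the next step, stood at 474, 426 and 425 CPM in WT and at 358, 363 and 349 CPM in the knockdown. All knockdown libraries lay below all WT libraries, in CPM and in TPM. Psat1 fell by 0.27 on the log2 scale over 5 libraries (SE 0.0419, edgeR adjusted p = 0.000776), to 83.9% of the mean of WT replicates 2 and 3. Over 6 libraries the value was -0.31, with an edgeR adjusted p of 0.337 and a DESeq2 adjusted p of 0.0472.

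Psph, the phosphatase that releases serine, stood at 71.3, 36.6 and 36.1 CPM in WT and at 28.0, 26.9 and 28.6 CPM in the knockdown. The groups did not overlap, and WT replicate 1 was far above the rest. Psph fell by 0.40 over 5 libraries (SE 0.0702, edgeR adjusted p = 0.00149), and over 6 libraries the log2 fold change was -0.79 (edgeR adjusted p = 0.276). Its exons share 10.4% of their bases with Cct6a on the opposite strand, whose 58801 counts over the 6 libraries exceed the 5414 of Psph. Reads of the shared bases may be split between both genes, so the value of Psph is uncertain.

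In the folate cycle both called enzymes, Shmt1 and Mthfd1l, fell over 5 libraries. Shmt1, the cytosolic serine hydroxymethyltransferase, stood at 53.0, 52.8 and 51.4 CPM in WT and at 43.4, 45.8 and 45.2 CPM in the knockdown. The CPM did not overlap, with or without WT replicate 1. Shmt1 fell by 0.23 over 5 libraries (SE 0.0609, edgeR adjusted p = 0.0134), and the value over 6 libraries was also -0.23 (edgeR adjusted p = 0.376). In TPM the groups overlapped, and the call over 5 libraries was lost on that scale and without WT replicate 2 or 3. Shmt1 shares 4.74% of its exon bases with Smcr8 on the opposite strand, which rose by 0.66 (edgeR adjusted p = 9.18e-06). The 19260 counts of Smcr8 over the 6 libraries exceed the 7246 of Shmt1, so the value of Shmt1 is uncertain too.

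Mthfd1l, the mitochondrial formyltetrahydrofolate synthetase that releases formate, stood at 100.2, 100.5 and 100.2 CPM in WT and at 97.5, 83.7 and 84.0 CPM in the knockdown. In CPM knockdown replicate 1 lay close below WT and the other knockdown libraries lay lower. In TPM the groups overlapped, at 22.8 to 42.6 TPM in WT and 37.5 to 42.9 TPM in the knockdown. Mthfd1l fell by 0.20 over 5 libraries (SE 0.0652, edgeR adjusted p = 0.0364), a call lost under 12 of 19 other settings, the omission of either WT library or of knockdown replicate 2 or 3 among them, and the value over 6 libraries was -0.18 (edgeR adjusted p = 0.495).

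The remaining one-carbon enzymes did not pass. Shmt2, the mitochondrial hydroxymethyltransferase, stood at 153, 142 and 123 CPM in WT and at 136, 141 and 146 CPM in the knockdown, and the groups overlapped. Mthfd1, the trifunctional cytosolic enzyme, stood at 103, 141 and 138 CPM in WT and at 148, 154 and 149 CPM in the knockdown, above every WT library. Mthfd2, the mitochondrial dehydrogenase and cyclohydrolase, stood at 113, 81.6 and 86.2 CPM in WT and at 90.9, 98.5 and 92.7 CPM in the knockdown. In CPM WT replicate 1 was highest and WT replicates 2 and 3 lowest. In TPM WT replicate 1 was lowest and the groups did not overlap. Mthfd2 stood at 48.3, 66.8 and 68.4 TPM in WT and at 72.7, 82.3 and 76.7 TPM in the knockdown. Over 5 libraries the log2 fold changes of Shmt2, Mthfd1 and Mthfd2 were 0.07, 0.10 and 0.15 (edgeR adjusted p = 0.468, 0.146 and 0.0657). Over 6 libraries they were 0.01, 0.24 and 0.01 (edgeR adjusted p = 0.965, 0.479 and 0.984). Mthfd2 was called higher under 8 of 19 other settings, and without knockdown replicate 1 among them it reached 0.19 (edgeR adjusted p = 0.0058). Without that library Mthfd1 was also called, at 0.12 (edgeR adjusted p = 0.0311).

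Glul rose over 5 libraries and Asns did not pass. Asns, which makes asparagine from aspartate and glutamine, stood at 283, 155 and 156 CPM in WT and at 153, 161 and 156 CPM in the knockdown. Outside WT replicate 1 the 5 libraries were within a narrow range, and the log2 fold change was -0.01 over 5 libraries (SE 0.0472, edgeR adjusted p = 0.930) and -0.34 over 6 (edgeR adjusted p = 0.535). Glul, the glutamine synthetase, stood at 178, 187 and 187 CPM in WT and at 210.0, 211 and 211 CPM in the knockdown. All knockdown libraries lay above all WT libraries. Glul rose by 0.16 over 5 libraries (SE 0.0429, edgeR adjusted p = 0.0168), and the value over 6 libraries was 0.20 (edgeR adjusted p = 0.442). The call was lost on TPM and without WT replicate 2 or 3.

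Among the aminotransferases Bcat1 rose and Gpt2 fell over 5 libraries. Bcat1, the cytosolic branched-chain aminotransferase, was low, at 3.22, 3.77 and 3.08 CPM in WT and at 5.67, 5.42 and 5.13 CPM in the knockdown. The groups did not overlap in CPM or TPM. Bcat1 rose by 0.65 over 5 libraries (SE 0.172, edgeR adjusted p = 0.0143), and over 6 libraries the value was 0.69, with an edgeR adjusted p of 0.167 and a DESeq2 adjusted p of 0.0246. The call over 5 libraries was lost without WT replicate 3. Bcat2, its mitochondrial counterpart, stood at 181, 83.7 and 84.5 CPM in WT and at 80.9, 87.5 and 86.7 CPM in the knockdown, so that only WT replicate 1 stood out. Its log2 fold change was 0.000841 over 5 libraries (edgeR adjusted p = 0.993) and -0.45 over 6 (edgeR adjusted p = 0.509).

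Gpt2, the mitochondrial alanine aminotransferase, stood at 24.3, 35.7 and 35.8 CPM in WT and at 28.3, 29.4 and 29.4 CPM in the knockdown. The knockdown libraries lay between WT replicate 1 and the other WT libraries. Gpt2 fell by 0.32 over 5 libraries (SE 0.0694, edgeR adjusted p = 0.0054), and the value over 6 libraries was -0.14 (edgeR adjusted p = 0.711). The call was lost on TPM and without WT replicate 3. The aspartate aminotransferases Got1, cytosolic, and Got2, mitochondrial, did not pass, with 0.04 and 0.11 over 5 libraries (edgeR adjusted p = 0.658 and 0.0818) and -0.18 and 0.11 over 6 (edgeR adjusted p = 0.661 and 0.652). Got1 stood at 91.1, 60.9 and 59.3 CPM in WT and at 61.1, 63.1 and 62.6 CPM in the knockdown, and Got2 at 214, 210.2 and 207 CPM in WT and at 229.9, 222 and 229.7 CPM in the knockdown. Got2 was above WT in every knockdown library, and Got1 overlapped. Got2 was called under 4 of 19 other settings, with a value of 0.12 (edgeR adjusted p = 0.0272) without knockdown replicate 1.

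In proline synthesis Aldh18a1 fell over 5 libraries. Aldh18a1, which turns glutamate into the proline precursor, stood at 93.9, 150.4 and 152 CPM in WT and at 128, 133 and 125 CPM in the knockdown. As for Gpt2, the knockdown lay between WT replicate 1 and the others. Aldh18a1 fell by 0.25 over 5 libraries (SE 0.048, edgeR adjusted p = 0.00258), a call lost on TPM, and the value over 6 libraries was -0.04 (edgeR adjusted p = 0.933). Pycr1, the mitochondrial reductase that completes proline, ranged from 5.72 to 9.12 CPM over the 6 libraries, with a log2 fold change of -0.10 over 5 libraries (edgeR adjusted p = 0.610) and -0.27 over 6 (edgeR adjusted p = 0.512).

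The transsulfuration enzymes did not pass. Cth, which cleaves cystathionine to cysteine, stood at 7.15, 5.14 and 4.64 CPM in WT and at 3.82, 3.36 and 3.43 CPM in the knockdown. The groups did not overlap in CPM. In TPM they overlapped through WT replicate 1, at 3.52 TPM against 3.18 to 3.54 TPM in the knockdown. The log2 fold change was -0.48 over 5 libraries (SE 0.171, edgeR adjusted p = 0.0502) and -0.67 over 6 (edgeR adjusted p = 0.242). Cth was called with a length trend removed, at -0.50 (edgeR adjusted p = 0.041), and without knockdown replicate 1, at -0.52 (edgeR adjusted p = 0.037). Cbs, which makes cystathionine, stood at 9.01, 9.22 and 10.5 CPM in WT and at 9.87, 10.9 and 9.81 CPM in the knockdown, and the groups overlapped. Its log2 fold change was 0.03 over 5 libraries (edgeR adjusted p = 0.871) and 0.09 over 6 (edgeR adjusted p = 0.762).

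Among the carriers, the heavy chain Slc3a2 rose over 5 libraries and its light chains Slc7a5 and Slc7a7 fell. Slc3a2 encodes 4F2hc (CD98), the glycoprotein that brings the Slc7 light chains to the plasma membrane. It stood at 316, 171 and 167 CPM in WT and at 306, 297 and 317 CPM in the knockdown. WT replicate 1 lay among the knockdown libraries, while WT replicates 2 and 3 lay well below them. Slc3a2 rose by 0.84 over 5 libraries (SE 0.0485, edgeR adjusted p = 2.63e-06), 1.81 times the mean of WT replicates 2 and 3, and ranked 26 among 15152 genes by p. Over 6 libraries the log2 fold change was 0.49 (SE 0.278, edgeR adjusted p = 0.422). In the deposited TPM it was 196, 184 and 176 TPM in WT and 296, 317 and 316 TPM in the knockdown, with no overlap. WT replicate 1 read lower in TPM than in CPM, beside WT replicate 2, for other members too. In these libraries Got2 stood at 214 and 210.2 CPM but at 72.6 and 135 TPM. Shmt1 stood at 53.0 and 52.8 CPM but at 34.5 and 41.6 TPM, so the shift differed between genes. The separation of Slc3a2 over 6 libraries holds on TPM only, and no share of all genes was taken on that scale.

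Slc7a5, the LAT1 light chain that exchanges large neutral amino acids, stood at 71.5, 110.1 and 108 CPM in WT and at 97.3, 101 and 97.4 CPM in the knockdown. The knockdown lay between WT replicate 1 and the other WT libraries. Slc7a5 fell by 0.17 over 5 libraries (SE 0.049, edgeR adjusted p = 0.0234), a call lost under 8 of 19 other settings, the omission of any library but knockdown replicate 1 among them, and the value over 6 libraries was 0.03 (edgeR adjusted p = 0.954), of the other sign. With the GC trend removed the value over 5 libraries was -0.30 (edgeR adjusted p = 0.000983). Slc7a7, the y+LAT1 light chain, stood at 30.8, 27.2 and 23.6 CPM in WT and at 20.2, 22.6 and 19.4 CPM in the knockdown, with no overlap. In TPM the groups overlapped, at 13.1, 27.8 and 23.8 TPM in WT and 20.2, 24.0 and 21.9 TPM in the knockdown. Slc7a7 fell by 0.31 over 5 libraries (SE 0.0993, edgeR adjusted p = 0.0347), a call lost under 9 of 19 other settings, the omission of either WT library or of knockdown replicate 3 among them, and the value over 6 libraries was -0.39 (edgeR adjusted p = 0.286). The exons of Slc7a7 share 7.0% of their bases with Oxa1l on the opposite strand, which rose by 0.29 (edgeR adjusted p = 0.00426). Oxa1l held 6907 counts over the 6 libraries against 3525 of Slc7a7, whose value is therefore uncertain. Slc7a6, the y+LAT2 light chain, ranged from 35.3 to 56.4 CPM and did not pass, at -0.10 over 5 libraries (edgeR adjusted p = 0.174) and 0.10 over 6 (edgeR adjusted p = 0.824).

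Of the cationic carriers, which import arginine and lysine without a heavy chain, Slc7a1 rose. It stood at 75.6, 149 and 149 CPM in WT and at 193, 187 and 179 CPM in the knockdown. Every knockdown library was above every WT library, in CPM and in TPM. Slc7a1 rose by 0.31 over 5 libraries (SE 0.0468, edgeR adjusted p = 0.000673), 1.25 times the mean of WT replicates 2 and 3, and the value over 6 libraries was 0.58 (edgeR adjusted p = 0.362). Slc7a3 ranged from 0.576 to 1.51 CPM, with a log2 fold change of 0.76 over 5 libraries (SE 0.471, edgeR adjusted p = 0.248) and 0.47 over 6 (edgeR adjusted p = 0.611).

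Of 2 sister carriers of small neutral amino acids, Slc1a4 fell over 5 libraries and Slc1a5 did not pass. Slc1a4 (ASCT1), which carries serine, alanine and cysteine, stood at 76.2, 91.2 and 86.7 CPM in WT and at 66.5, 64.5 and 59.6 CPM in the knockdown. The groups did not overlap in CPM, and WT replicate 1 was the WT library nearest to the knockdown. Slc1a4 fell by 0.50 over 5 libraries (SE 0.0575, edgeR adjusted p = 0.00013), to 71.4% of the mean of WT replicates 2 and 3. Over 6 libraries the value was -0.42, with an edgeR adjusted p of 0.236 and a DESeq2 adjusted p of 0.0273. In TPM the groups overlapped through WT replicate 1, at 15.98 TPM against 23.7 to 25.8 TPM in the knockdown. Slc1a5 (ASCT2), the glutamine carrier, stood at 73.3, 69.9 and 68.9 CPM in WT and at 87.3, 70.4 and 72.9 CPM in the knockdown. Only knockdown replicate 1 exceeded all WT libraries, and the log2 fold change was 0.13 over 5 libraries (edgeR adjusted p = 0.273) and 0.12 over 6 (edgeR adjusted p = 0.670).

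**Figure D4:**
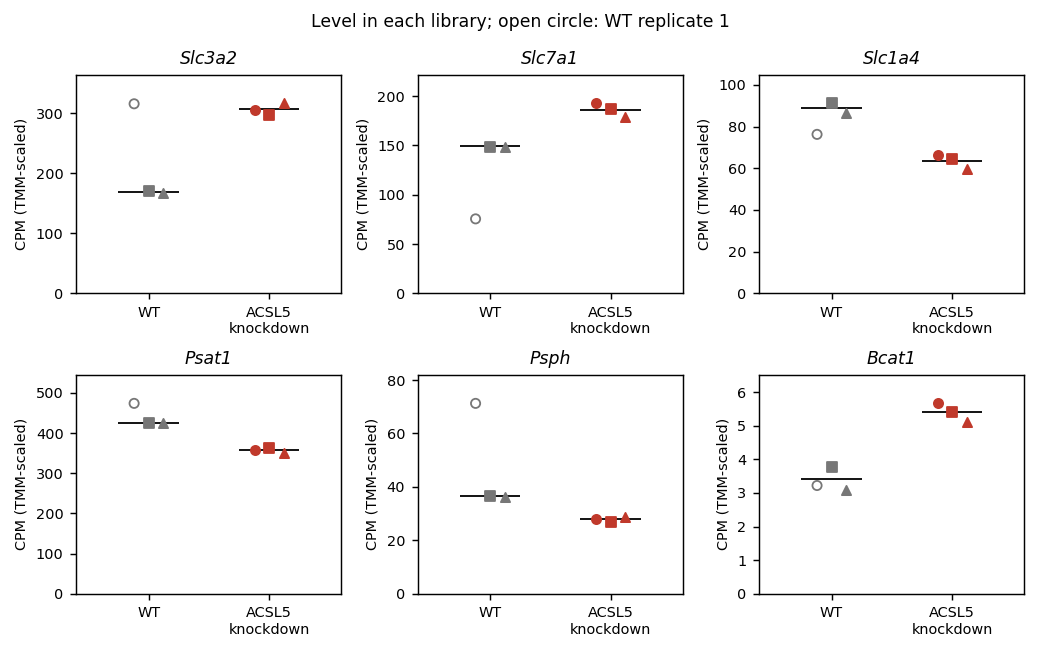
CPM (scaled by TMM, linear axis from 0) of Slc3a2, Slc7a1, Slc1a4, Psat1, Psph and Bcat1 in each library; open circles are WT replicate 1 and lines are means of WT replicates 2 and 3 and of the 3 knockdown libraries. WT replicate 1 lies at 316 CPM beside the knockdown for Slc3a2, below the other WT libraries for Slc7a1 and Slc1a4, and above them for Psph and Psat1.

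Of the other neutral carriers only Slc43a2 passed. Slc43a2 (LAT4), which carries branched-chain amino acids and phenylalanine, stood at 3.60, 7.76 and 5.49 CPM in WT and at 8.86, 9.26 and 9.37 CPM in the knockdown. The knockdown lay above WT in every library, and the WT libraries were wide apart. Slc43a2 rose by 0.46 over 5 libraries (SE 0.158, edgeR adjusted p = 0.0437), a call lost under 9 of 19 other settings, the omission of WT replicate 3 or of knockdown replicate 2 or 3 among them, and the value over 6 libraries was 0.70 (edgeR adjusted p = 0.309). Slc38a2 (SNAT2), a sodium-coupled carrier known to be induced when amino acids are scarce, stood at 264, 367 and 372 CPM in WT and at 371, 356 and 339 CPM in the knockdown. It overlapped, at -0.07 over 5 libraries (edgeR adjusted p = 0.253) and 0.09 over 6 (edgeR adjusted p = 0.820). Slc38a1 (SNAT1) ranged from 0.874 to 1.84 CPM, at 0.21 over 5 libraries (edgeR adjusted p = 0.606) and 0.42 over 6 (edgeR adjusted p = 0.494). Slc6a9 (GLYT1), the glycine carrier, was at 22.7 CPM in WT replicate 1 and from 38.9 to 41.8 CPM in the other 5 libraries, at -0.08 over 5 libraries (edgeR adjusted p = 0.386) and 0.17 over 6 (edgeR adjusted p = 0.732). With the GC trend removed Slc6a9 was called lower over 5 libraries, at -0.24 (edgeR adjusted p = 0.0105). Its exons share 27.8% of their bases with Ccdc24 on the opposite strand, which held 297 counts over the 6 libraries against 5716 of Slc6a9.

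Levels between genes were compared in TPM, per length. In WT replicates 2 and 3, Phgdh had the highest mean of the enzymes, 525 TPM or 30.2% of their sum, followed by Psat1 at 255 TPM and Got2 at 133 TPM. Asns (129 TPM), Glul (107 TPM) and Shmt2 (101 TPM) came next. The same 6 enzymes led in the knockdown in the same order, with Phgdh at 561 TPM and Psat1 at 214 TPM. The lowest enzyme was Bcat1, at 1.98 TPM in WT replicates 2 and 3 and 3.28 TPM in the knockdown. Among carriers Slc3a2 had the highest mean, 180 TPM in WT replicates 2 and 3 and 309 TPM in the knockdown, which is 32.8% and 46.3% of the carrier sum. Slc38a2 followed at 119 and 115 TPM, then Slc1a5 at 55.5 and 59.8 TPM and Slc7a5 at 54.5 and 46.4 TPM. Slc1a4 went from rank 5 (34.8 TPM) to rank 7 (25 TPM) of the carriers, below Slc7a1 and Slc7a6.

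Summed over the class, enzyme TPM was 1284, 1760 and 1720 in WT and 1698, 1829 and 1782 in the knockdown, and the groups overlapped. Carrier TPM was 336, 555 and 544 in WT and 652, 679 and 673 in the knockdown, with every knockdown library above every WT library. Without Slc3a2, carrier TPM was 140.4, 371 and 368 in WT and 356, 362 and 357 in the knockdown, where the groups overlapped and the knockdown lay below WT replicates 2 and 3.

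**Figure D5:**
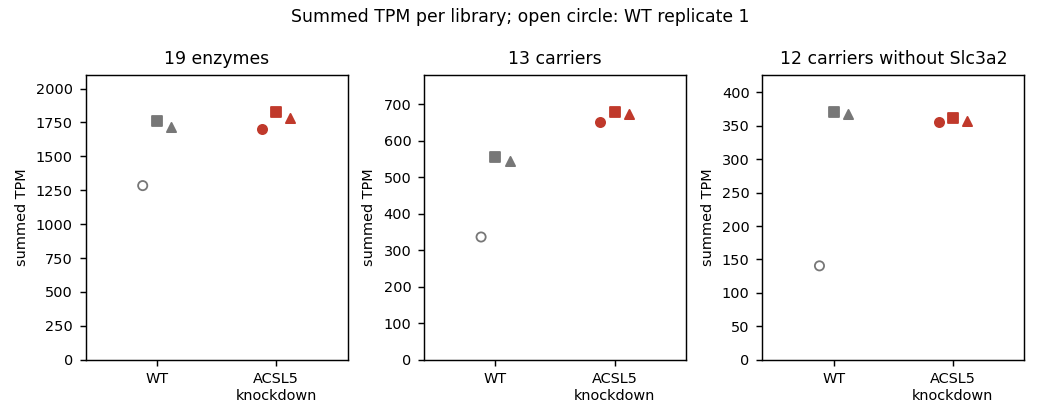
Summed TPM of the 19 enzymes, the 13 carriers and the carriers without Slc3a2, 1 point for each of the 6 libraries, from 0. The carrier sum separates the groups (336 to 555 against 652 to 679 TPM) and does so no longer without Slc3a2 (140.4 to 371 against 356 to 362 TPM).

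Partner genes were set against each other within each library, as log2 ratios of TPM plus 0.1, in 9 pairs. Each pair was compared by a two-sided exact permutation test over the 6 libraries, whose smallest p is 0.1, so that no pair could pass 0.05. The Slc1a5 to Slc1a4 ratio was 0.59, 0.66 and 0.69 in WT and 1.22, 1.12 and 1.42 in the knockdown, a difference of 0.61 (exact p = 0.1, adjusted 0.18), and of 0.58 without WT replicate 1. All knockdown libraries lay above all WT libraries, WT replicate 1 included. The Bcat1 to Bcat2 ratio was 1.14 higher (exact p = 0.1, adjusted 0.18) and the Shmt2 to Shmt1 ratio, mitochondrial over cytosolic, 0.41 higher (exact p = 0.1, adjusted 0.18), both without overlap. Without WT replicate 1 those differences were 0.67 and 0.21.

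The Mthfd1l to Mthfd1 ratio was lower without overlap, with a difference of -0.34 (exact p = 0.1, adjusted 0.18), and so was the Cth to Cbs ratio, at -0.72 (exact p = 0.1, adjusted 0.18). Without WT replicate 1 those differences were -0.20 and -0.48. The Slc7a5 to Slc3a2 ratio, light chain over heavy chain, was -3.52, -1.73 and -1.72 in WT and -2.74 in each knockdown library. WT replicate 1 lay below the knockdown and the other WT libraries above it, so that the difference was -0.41 over 6 libraries (exact p = 0.4, adjusted 0.514) and -1.01 without WT replicate 1. The other 3 pairs overlapped: Got2 to Got1 differed by 0.26, Mthfd2 to Mthfd1 by -0.21 and Slc38a1 to Slc38a2 by -0.22 (exact p = 0.2, 1 and 0.6, adjusted 0.3, 1 and 0.675). Without WT replicate 1 their differences were 0.09, 0.07 and -0.35.

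Further genes of these pathways were read from lists. Of 18 genes of the integrated stress response, the program that includes ATF4, edgeR called 9 higher and 4 lower over 5 libraries, 72.2% where 34.3% of all genes were called, with a median log2 fold change of 0.37. Ppp1r15a, which ends the response by directing dephosphorylation of eIF2α, rose by 0.87 (SE 0.0691), and Trib3, an ATF4 target, rose by 0.68 (SE 0.0771). The eIF2α kinases Eif2ak3 and Eif2ak4 fell, by 0.59 (SE 0.0633) and 0.58 (SE 0.074). Over 6 libraries the values were 0.78 for Ppp1r15a, 0.38 for Trib3, -0.32 for Eif2ak3 and -0.38 for Eif2ak4, none called by edgeR. Atf4 itself was at 718 CPM in WT replicate 1 and had means of 322 CPM in WT replicates 2 and 3 and 400 CPM in the knockdown. It rose by 0.30 over 5 libraries (edgeR adjusted p = 0.00255), and the value over 6 libraries was -0.18 (edgeR adjusted p = 0.806). Over 6 libraries the list's median was 0.08 and edgeR, which called 0 genes in all, called none of it. DESeq2 called 4 higher (Gdf15, Ppp1r15a, Atf3 and Sesn2) and 1 lower (Cebpg). Gdf15 had the highest fold change of the list, 3.12 over 5 libraries and 3.13 over 6.

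Over 5 libraries, of 23 other folate and methionine genes, 4 rose and 5 fell (39.1% called, median -0.08). Aldh1l1 and Aldh1l2, the cytosolic and mitochondrial 10-formyltetrahydrofolate dehydrogenases, fell by 0.89 (SE 0.109) and 0.56 (SE 0.0621). Gldc of the glycine cleavage system rose by 0.83 (SE 0.109), and Fpgs, which adds glutamates to folate, rose by 0.70 (SE 0.109). The CPM means of Aldh1l1 were 23.8 in WT replicates 2 and 3 and 13 in the knockdown, and those of Gldc were 9.19 and 16.5. With all 6 libraries these were -0.85 for Aldh1l1, -0.18 for Aldh1l2, 0.65 for Gldc and 0.57 for Fpgs.

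Of 18 other genes of glutamate, glutamine, proline, arginine and branched-chain metabolism, 2 rose and 7 fell (50% called, median -0.08). Asl, the argininosuccinate lyase, fell by 0.51 (SE 0.0658), and Glud1, the glutamate dehydrogenase, fell by 0.22 (SE 0.0448). Pycrl, a cytosolic pyrroline-5-carboxylate reductase, rose by 0.55 (SE 0.1), and Srr, the serine racemase, rose by 0.29 (SE 0.0802). The fit of 6 libraries gave -0.67 for Asl, -0.39 for Glud1, 0.37 for Pycrl and 0.45 for Srr.

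Of 21 other amino acid carriers, 6 rose and 2 fell (38.1% called, median -0.03). Slc7a11, the cystine carrier that also pairs with Slc3a2, fell by 0.32 (SE 0.066), and Slc25a13, a mitochondrial aspartate-glutamate carrier, fell by 0.20 (SE 0.0526). The lysosomal carrier Slc38a7 and the mitochondrial glutamate carrier Slc25a22 rose, by 0.41 (SE 0.0886) and 0.40 (SE 0.0881). In the fit of 6 libraries they were -0.08 for Slc7a11, -0.19 for Slc25a13, 0.55 for Slc38a7 and 0.42 for Slc25a22.

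Over 5 libraries, of 20 cytosolic aminoacyl-tRNA synthetases, which load amino acids onto tRNA, 3 rose and 6 fell (45.0% called, median -0.07). Lars and Iars fell by 0.42 (SE 0.0493) and 0.29 (SE 0.0445), and Aars and Kars rose by 0.32 (SE 0.0456) and 0.18 (SE 0.0444). Over 6 libraries Iars was at 0.02, of the other sign, and Kars at 0.02, while Lars was at -0.46 and Aars at 0.40. Iars was at 86.3 CPM in WT replicate 1, against 190.0 and 192 CPM in the other WT libraries and 154 to 162 CPM in the knockdown. Over 6 libraries the medians of the folate and methionine, glutamate to branched-chain, carrier and synthetase lists were -0.08, -0.06, 0.15 and -0.11, and edgeR called none of their genes. DESeq2 called 4 higher (Slc38a4, Slc25a22, Slc43a3 and Aars) and 4 lower (Aldh1l1, Slc25a32, Asl and Lars). Slc38a4 lay at only 0.0649 to 0.701 CPM.

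The 3′ untranslated regions were searched for the overlapping words GAACTAC and AACTACA on the sense strand, which were picked from these same fold changes, so that their relation to them is no independent support. Either word was present in 6 of 31 members (19.4%), Slc1a4, Slc38a2, Cbs, Slc6a9, Slc7a5 and Slc7a1, and in 13.4% of 12421 genes tested. The median log2 fold change over 5 libraries was -0.07 for members with a word and 0.04 for those without, and over all genes it was -0.14 and 0.02. Of the 6, Slc1a4 and Slc7a5 fell, Slc7a1 rose and the other 3 did not pass.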

How the data were processed

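RNA of 6 libraries (3 WT, 3 ACSL5 knockdown) was sequenced on Illumina instruments, per the labels' protocols. The tools fastp, HISAT2, StringTie and DESeq2 appear in the submitters' processing notes, as do the builds hg38 and GRCh38, although genes carry mouse identifiers. The sources used here do not give their roles or versions, the strandedness or the quantifier. Expected counts were deposited by the authors per gene, of which 10.1% to 13.0% were not whole, and so were TPM (levels per gene length and library sum) and the length of each gene in bases.

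Counts were rounded to whole numbers, filtered with filterByExpr, scaled by TMM and tested with the two-sided quasi-likelihood test of edgeR 4.0.16 (robust, R 4.3.3), with Benjamini-Hochberg adjustment over all genes tested and a threshold of 0.05. Log2 fold changes are knockdown minus WT. Levels are CPM, and TPM between genes. No label says that libraries are separate cultures, so p-values measure the spread between libraries, which may be technical. Alternatives used DESeq2 1.42.0, limma 3.58.1 on log2 (TPM + 1) and log2 (TPM + 0.1), other scalings, filters, trends and left-out libraries. Code was tested on simulated data.

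Members, lists and the choice to report 5 libraries were made with earlier results of these data known. All members are named. From each pathway list, up to 3 called genes with the smallest p are named. So is the called gene, apart from these, with the largest fold change against the direction of most of them. Atf4 was added as the factor behind the response, and the genes of these lists that DESeq2 called over 6 libraries are named. Promoters came from RefSeq, and exon overlaps and untranslated regions from the GENCODE mouse annotation.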

Additional observations from a re-analysis of the deposited data

How the results depend on the processing

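With 6 libraries, where edgeR called 0 members, DESeq2 called 3, removal of a length trend or of length and GC trends 2 each, and limma-voom with quality weights 15; leaving out 1 library gave 0 to 14, the 14 without WT replicate 1. The enzyme median of -0.14 became -0.0424 with library totals, 0.21 and 0.22 on log2 (TPM + 1) and log2 (TPM + 0.1), 0.0264 with quality weights, and -0.192 (without WT replicate 3) to 0.000841 (without WT replicate 1) leaving out 1 library. The carrier median of 0.15 became 0.45 and 0.48 (0.475) on the TPM scales, 0.241 with library totals, 0.0633 without length and GC trends, 0.0174 with quality weights, and 0.0288 (without WT replicate 1) to 0.253 (without WT replicate 2) leaving out 1 library.

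With 5 libraries, the 14 members called became 6 on either TPM scale, 7 at a threshold of 0.01, 0 with all 6 libraries (an alternative chosen after seeing the data), and 6 to 19 leaving out 1 library, 6 without WT replicate 3 and 9 without WT replicate 2, fits that take the spread of the single WT library left from the knockdown group. Same-numbered libraries deviated from their group means with correlations of -0.12, 0.02 and -0.14. WT replicate 1 dominates the WT deviations, so that WT replicates 2 and 3 gave nearly the same values (0.11 and 0.101 with knockdown replicate 1). The correlations therefore cannot decide whether the numbers pair the libraries. With the replicate block 15 members were called over 5 libraries and 0 over 6. The enzyme median of 0.000841 became 0.03 with library totals (0.0346) and on both TPM scales (0.0275 and 0.0278), 0.0421 with the replicate block, -0.11 without a GC trend, -0.13 without length and GC trends, -0.14 with all 6 libraries, and -0.0131 (without knockdown replicate 2) to 0.0513 (without knockdown replicate 1) leaving out 1 library. The carrier median of 0.03 became 0.0629 with library totals, -0.0557 with a filter of 1 CPM, -0.0177 with the replicate block, 0.051 without a length trend, 0.00808 without a GC trend, 0.15 with all 6 libraries, and -0.0086 to 0.0724 leaving out 1 library.

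No called member turned its direction under the 19 planned settings, and 9 uncalled members did; with all 6 libraries Slc7a5 turned to 0.0254. Asns turned to 0.00427 with DESeq2 size factors, 0.0269 with library totals, 0.00924 without a filter, 0.0097 with the 1 CPM filter, 0.0044 with DESeq2, 0.0134 and 0.0135 on TPM, 0.0158 with the replicate block, and leaving out 1 library gave -0.0178 to 0.0255. With the GC trend removed, Phgdh was at -0.114, Shmt2 at -0.109, Asns at 0.0516, Bcat2 at -0.0666, Slc1a5 at -0.0228 and Slc38a2 at 0.039. With length and GC removed, these were at -0.139 (edgeR adjusted p = 0.0323 for Phgdh), -0.126, 0.0161, -0.0943, -0.029 and 0.0618, and Got1 at -0.00746. Slc7a6 was at 0.0841 and 0.0871 on TPM, and Bcat2 at -0.0182 without a length trend. Leaving out 1 library gave -0.0108 to 0.0513 for Bcat2, -0.0595 to 0.129 for Cbs and -0.0322 to 0.176 for Shmt2. With all 6 libraries Phgdh was at -0.0985, Got1 at -0.178, Bcat2 at -0.454, Slc7a6 at 0.0964, Slc38a2 at 0.0879 and Slc6a9 at 0.174. The Mthfd2 to Mthfd1 ratio ran from -0.352 without WT replicate 2 to 0.0729 without WT replicate 1, and Slc38a1 to Slc38a2 from -0.347 without WT replicate 1 to 0.00782 without WT replicate 3. The causes were not tested. Low counts limit Slc7a3 and Slc38a1, whose standard errors over 5 libraries were 0.471 and 0.281.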
